A study of Mus musculus with 4 samples.

Results

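mmu-miR-122 is the microRNA (miRNA) that was read out by the probes carrying this gene name on 4 Agilent mouse miRNA arrays, and it was 1 of the 611 mouse miRNAs on each array. Its probes were taken by that name, and the 2 probes, each printed as 10 spots, gave 20 spots per array. No other feature carried a miR-122 name, so the opposite strand of its precursor was not measured. Every array held pooled liver RNA of 3 male mice, entering the experiment at 6 to 8 weeks of age and then housed singly for 2 weeks under 12 h of light per day, with food and water always available. The WT ZT2 pool came from wild-type mice killed at 09:00, shortly after lights-on, and the WT ZT14 pool from wild-type mice killed at 21:00, early in the dark phase. The Clock mutant ZT2 and Clock mutant ZT14 pools came from mice carrying the ClockΔ19 mutation, killed at the same 2 times. There was 1 array per condition, all 4 were on 1 slide, and the background strain of the WT mice is not given in the sources used here. The arrays measured miRNAs, so the Clock transcript itself could not be used to check the genotype labels.

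A miRNA is a short RNA that guides the silencing machinery to messenger RNAs, mainly through pairing of its seed, the bases near its 5′ end, and so lowers the stability or translation of its targets. miR-122 is the classical liver-specific miRNA: it is made in hepatocytes, acts in cholesterol and fatty acid metabolism, and is a host factor for hepatitis C virus. CLOCK is the transcription factor that, with its partner BMAL1, drives the activating arm of the circadian feedback loop, and the Δ19 allele encodes a protein that still binds its partner but activates transcription poorly. Transcription of the miR-122 precursor is known to vary over the day in mouse liver, while the mature miRNA is long-lived.

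miR-122 was the brightest mouse miRNA on all 4 arrays. Its mean processed signal, in fluorescence units after background subtraction and before scaling, was 52215 in WT ZT2, 55936 in Clock mutant ZT2, 29413 in WT ZT14 and 52644 in Clock mutant ZT14. WT ZT14 was the dim one, and the other 3 lay close together. Other miRNAs were dim there too: the 75th percentile of the 123 mouse miRNAs detected on all arrays was 339.9 in WT ZT14, against 503 to 537 on the other 3. The spike-in control probes were not dim on that array. Their level spanned a 1.13-fold range and was highest in WT ZT14, at 6773. It was 6409 in WT ZT2, 6309 in Clock mutant ZT2 and 5978 in Clock mutant ZT14. Why the miRNA signal of WT ZT14 was lower was not tested. Signals were divided by the 75th percentile of each array before arrays were compared, and this quotient is called the scaled level. Spike-in scaling, given below, leaves the lower miRNA signal of WT ZT14 in the ratios.

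The 2 probes of miR-122 differed in brightness on every array. The dimmer probe had a mean signal of 32036 ± 1262 in WT ZT2 (SD over spots, n = 10), 32674 ± 895 in Clock mutant ZT2 (n = 10), 17272 ± 308 in WT ZT14 (n = 9) and 32418 ± 1008 in Clock mutant ZT14 (n = 9). The brighter probe had a mean signal of 72394 ± 4228, 79198 ± 4229, 41553 ± 1635 and 72869 ± 4019 on the same arrays (n = 10 each). No spot of the brighter probe fell into the range of the dimmer probe on the same array, and the quotient of the probe means was 2.26 in WT ZT2, 2.42 in Clock mutant ZT2, 2.41 in WT ZT14 and 2.25 in Clock mutant ZT14. The spot-to-spot coefficient of variation was 1.78% to 3.94% for the dimmer probe and 3.93% to 5.84% for the brighter probe. These SDs are technical, since all spots of an array saw the same pooled RNA.

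**Figure D1:**
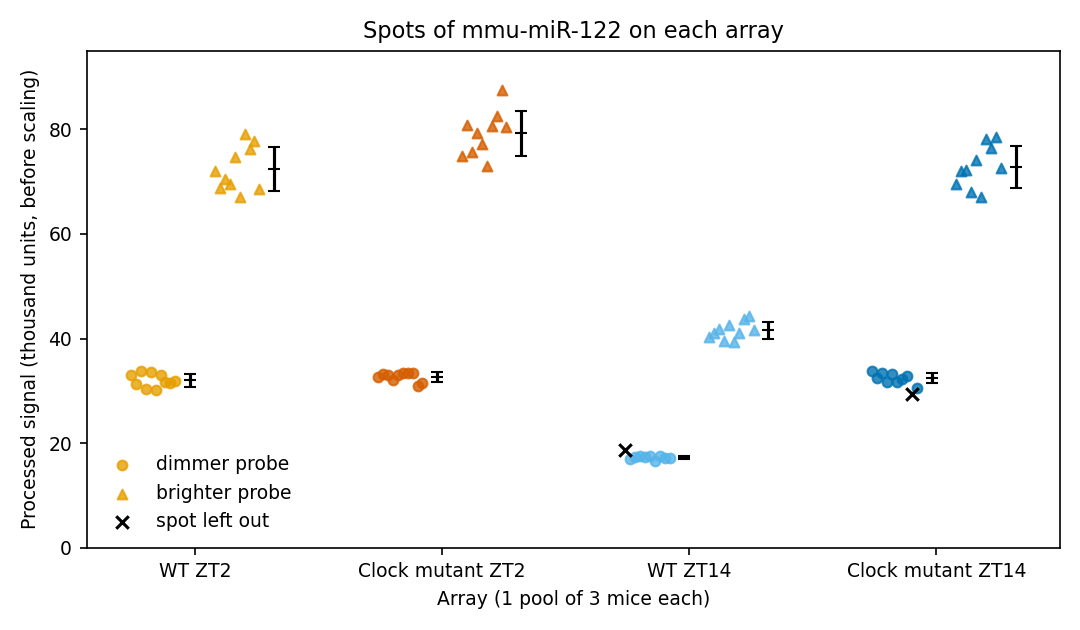
Processed signal of each miR-122 spot before scaling (vertical axis) on the 4 arrays (horizontal axis), with circles for the dimmer probe, triangles for the brighter probe, bars for mean ± SD over spots and crosses for the 2 spots left out as outliers. The brighter probe averaged 72394, 79198 and 72869 on 3 arrays and 41553 on the WT ZT14 array, which was lower for both probes.

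The signal was far from both ends of the measuring range. There were 0 saturated spots and 0 saturated pixels among the miR-122 spots, and the brightest spot, on the Clock mutant ZT2 array, reached 11.3% of the saturation value of 778790 units. All spots were well above background. The local background was 28.9 to 33.3 units, and the mean signal of miR-122 was 9529, 10670, 3534 and 5414 times the mean of the negative control spots, in the array order used above. The scanner software marked 1 spot of the dimmer probe as an outlier on each ZT14 array, and both were left out. In WT ZT14 the omitted spot was brighter, at 18696 units against a mean of 17272 for the others, and in Clock mutant ZT14 it was dimmer, at 29365 against 32418. Spots of the brighter probe at the same position tended to deviate together on different arrays, with a Pearson r across the 10 positions of 0.56 to 0.87 (median 0.73) over the 6 pairs of arrays, and those of the dimmer probe less so, at -0.014 to 0.79 (median 0.34). These correlations used all spots, including those left out of the means. They are descriptive, and the points share their print position and probe.

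miR-122 made up the greatest part of the detected mouse miRNA signal on each array. Its share was 37.8% ± 1.20 in WT ZT2, 40.8% ± 1.04 in Clock mutant ZT2, 37.7% ± 0.740 in WT ZT14 and 42.1% ± 1.14 in Clock mutant ZT14, where the error is the SD over spots carried into the share. Both Clock mutant pools had a higher share than both WT pools, with 1 pool per condition and no test within a time point. A share needs no scaling between arrays, so it did not depend on the lower miRNA signal of WT ZT14. The share is one of fluorescence and not of molecules, since probes differ in signal per molecule.

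The rank of miR-122 by signal was 1 of 193 detected mouse miRNAs in WT ZT2, 1 of 161 in Clock mutant ZT2, 1 of 138 in WT ZT14 and 1 of 142 in Clock mutant ZT14. miR-21, a broadly expressed miRNA linked to cell growth and fibrosis, was second on each array. Its mean signal was 14693, 11342, 8038 and 12630 units in the same order, so miR-122 exceeded it 3.55-fold, 4.93-fold, 3.66-fold and 4.17-fold. Against the median detected miRNA, the signal of miR-122 was 914-fold higher in WT ZT2, 694-fold in Clock mutant ZT2, 461-fold in WT ZT14 and 582-fold in Clock mutant ZT14. That multiple also moves with the number of faint miRNAs called detected, which was largest in WT ZT2. The signal was concentrated in few miRNAs throughout. The 10 brightest held 72.2% to 74.2% of the signal, 29 to 33 miRNAs made up 90% of it, and between 121 and 177 detected miRNAs each held under 1%. The only brighter feature on the arrays was a control probe named hur_2, with 95395, 88386, 49609 and 75241 units, and what it reports is not given in the sources used here.

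**Figure D2:**
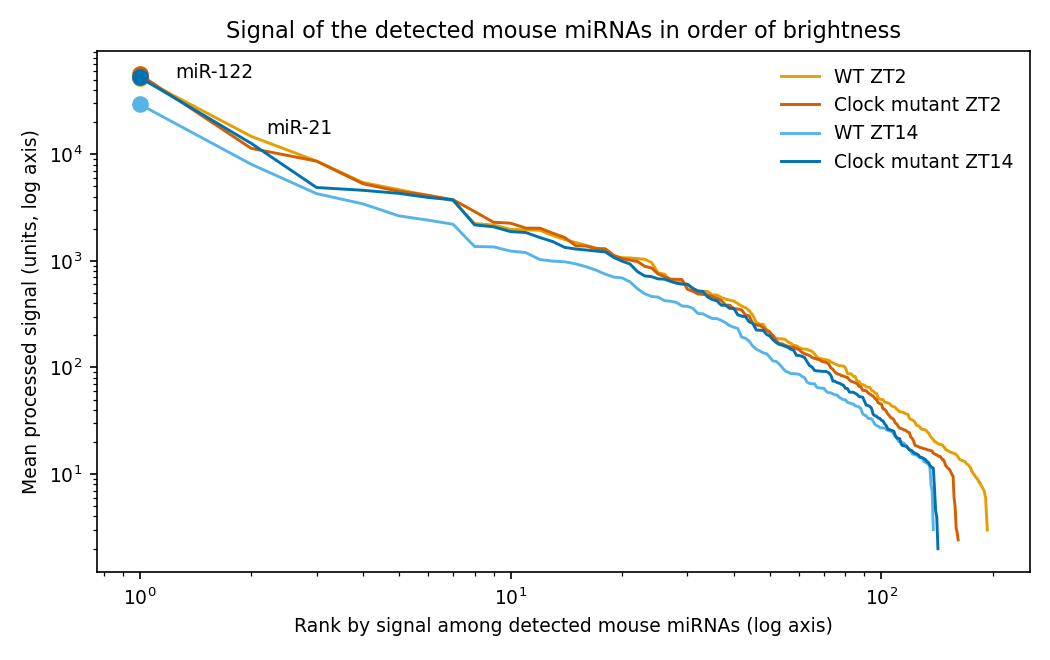
Mean processed signal of every detected mouse miRNA (vertical log axis, units) against its rank by signal (horizontal log axis), with 1 line per array and large points for miR-122. miR-122 lies at rank 1 on all 4 arrays, between 3.55-fold and 4.93-fold above miR-21 at rank 2, and the WT ZT14 line starts lowest, at 29413 units.

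After scaling, the 4 levels of miR-122 lay within a 1.28-fold range, compared with 1.90-fold before scaling. The scaled level was 97.3 in WT ZT2, 111 in Clock mutant ZT2, 86.5 in WT ZT14 and 98.3 in Clock mutant ZT14. On the log2 scale these levels were 6.60 ± 0.072, 6.80 ± 0.061, 6.44 ± 0.045 and 6.62 ± 0.066 (SD over spots). Clock mutant ZT2 was highest and WT ZT14 lowest. Clock mutant ZT2 exceeded Clock mutant ZT14, next in order, by 0.18 (combined spot SD 0.090), and WT ZT2 exceeded WT ZT14 by 0.17 (combined spot SD 0.084). In the middle of the order, Clock mutant ZT14 and WT ZT2 differed by 0.015 with a combined spot SD of 0.097, so these neighbours did not differ beyond their spread.

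Whether loss of normal CLOCK function was accompanied by another level of miR-122 was asked at each time point. The level in the Clock mutant pool was 1.14-fold that in the WT pool at ZT2, which is 0.19 on the log2 scale with a spot SD of 0.094. At ZT14 it was also 1.14-fold, or 0.18 with a spot SD of 0.079. Both differences from 0 were larger than the spot SD and far below a 2-fold change, and each ratio compared 2 pools with no replicate check. Among all miRNAs detected on both arrays, 4 of 160 (2.5%) were at least 2-fold apart at ZT2 and 8 of 123 (6.5%) at ZT14. miR-122 was not one of them. At ZT2, 79 miRNAs had a ratio farther from 0 than miR-122, and at ZT14 59 did. The median log2 ratio over all detected miRNAs was -0.065 at ZT2 and -0.031 at ZT14. miR-122 lay 0.26 and 0.21 above these medians, at the 85th and the 82.1 percentile of all ratios. A single scaling number per array moves every miRNA alike, so these distances from the median do not depend on it.

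The 2 probes gave the same direction. At ZT2 the log2 ratio was 0.12 (spot SD 0.070) by the dimmer probe and 0.22 (spot SD 0.11) by the brighter one. At ZT14 it was 0.25 (spot SD 0.052) and 0.15 (spot SD 0.098), respectively. The brighter probe's ratio minus the dimmer probe's was 0.10 at ZT2 (combined spot SD 0.13) and -0.098 at ZT14 (combined spot SD 0.11). Both gaps were smaller than the spread of single spots, which is wider than the error of a probe mean. Whether the probes differed was therefore not settled by this, and the sign of the gap changed between the times. The ratio at ZT14 minus that at ZT2 was -0.0078 (spot SD 0.12), which was not tested for want of replicates.

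The genotype ratio of miR-122 at ZT14 depended on how the arrays were brought to one scale. Without scaling it was 0.84, with the spike-in probes as the scale 1.02, and with a 75th percentile taken over detected and undetected mouse miRNAs alike 0.69. At ZT2 the same alternatives gave 0.10, 0.12 and 0.50. The scaling shifted all miRNAs together: the 75th percentile in Clock mutant ZT14 was 0.66 above that in WT ZT14 on the log2 scale, whereas at ZT2 the mutant array was 0.092 below the WT array. The ratio was above 0 at both times under all alternatives tried, except that quantile normalization gave 0 at both times and the software's summed signal with scaling gave -0.033 at ZT2.

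**Figure D3:**
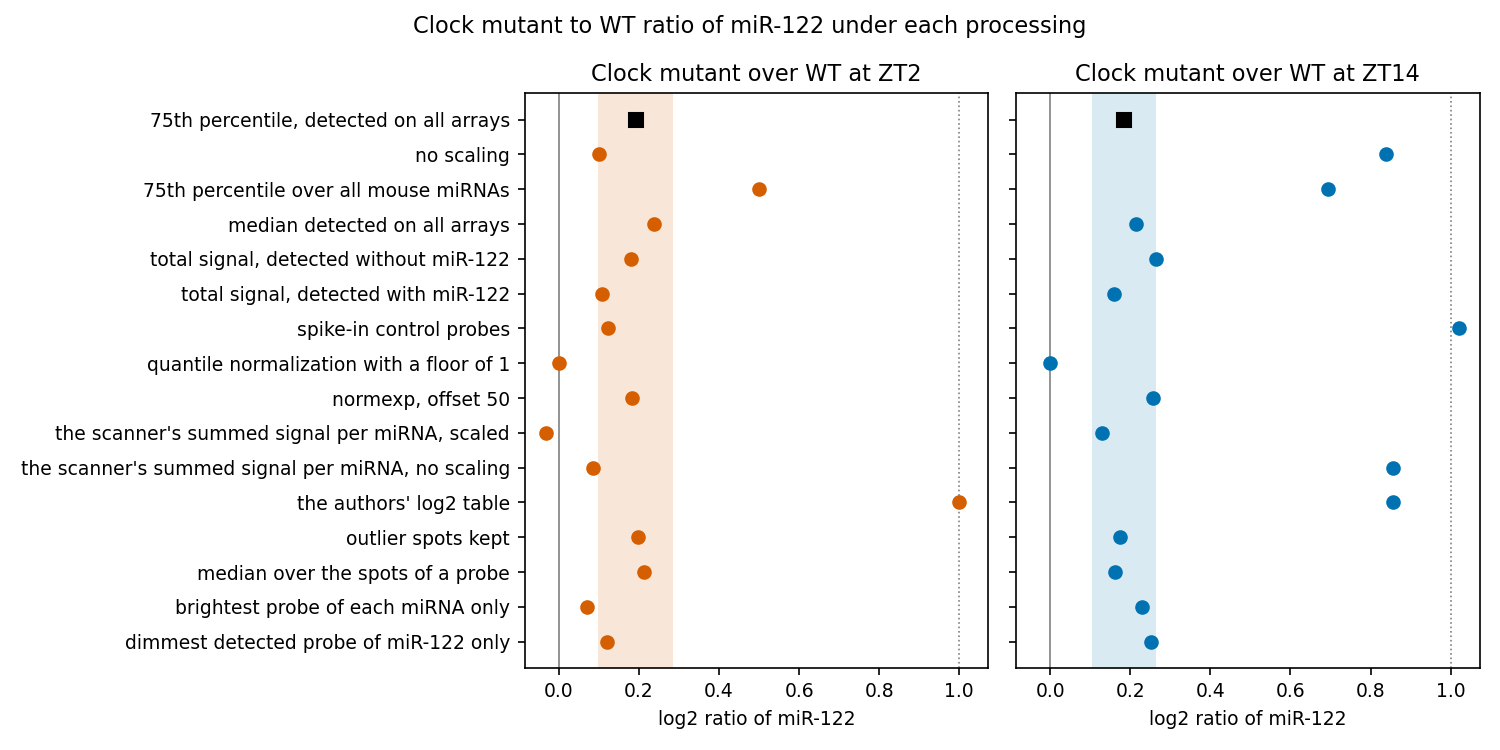
Log2 ratio of miR-122, Clock mutant over WT, at ZT2 and ZT14 (horizontal axes) under each way of processing the arrays (vertical axis), with a square for the reported value, a shaded band for ± 1 spot SD around it, and a dotted line at 2-fold. The reported values are 0.19 and 0.18, and the points range from -0.033 to 1.001 at ZT2 and from 0 to 1.02 at ZT14.

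The time of day was compared within each genotype. The level at ZT14 was 0.889-fold that at ZT2 in WT, a log2 ratio of -0.17 (spot SD 0.084), and 0.885-fold in the Clock mutant, a log2 ratio of -0.18 (spot SD 0.090), but the direction was not stable: with the median of the detected miRNAs as the scale the ratios were 0.053 and 0.029, and with the 75th percentile of detected and undetected miRNAs 0.13 and 0.32. Without scaling they were -0.83 in WT and -0.088 in the Clock mutant, and with the spike-in probes as the scale -0.91 and -0.0097. Over all miRNAs detected on both arrays the median log2 ratio was -0.12 in WT and -0.16 in the Clock mutant. miR-122 lay only -0.048 and -0.021 from these medians, near the middle of all ratios, at the 38.0 and the 45th percentile. At least 2-fold differences between times were seen for 5 of 137 miRNAs (3.65%) in WT and for 9 of 140 (6.43%) in the Clock mutant, and miR-122 was not among them. By probe, the log2 ratio in WT was -0.23 for the dimmer and -0.14 for the brighter probe, and in the Clock mutant -0.10 and -0.21.

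Genotype and time were also fitted together over the 4 arrays with limma, which leaves 1 residual degree of freedom per miRNA and rests on the spread shared by all 123 miRNAs. The genotype difference of miR-122, Clock mutant minus WT on the log2 scale, was 0.19 (SE 0.12, 95% confidence interval -0.16 to 0.53), with an adjusted p of 0.566. The time difference, ZT14 minus ZT2, was -0.17 (SE 0.12, interval -0.52 to 0.17), with an adjusted p of 0.539, and its sign depended on the scale as described above. Neither passed the threshold, and both intervals include 0. On some other scales the genotype difference was larger: 0.47 without scaling (adjusted p 0.924) and 0.57 with the spike-in probes (adjusted p 0.808). It was 0.60 with the 75th percentile of detected and undetected miRNAs (interval 0.19 to 1.004, unadjusted p 0.0172, adjusted p 0.103). Other processing made it smaller: 0.13 with the total signal including miR-122 as the scale and 0.15 with the brightest probe of each miRNA. The software's summed signal with scaling gave 0.048 (adjusted p 0.796), and quantile normalization gave 0. The time difference was -0.46 both without scaling and with the spike-in probes. For the genotype term limma called 0 of 123 miRNAs (0%), with 10 at an unadjusted p under 0.05 and a smallest adjusted p of 0.220. For time it called 0 of 123 (0%), with 12 at an unadjusted p under 0.05 and a smallest adjusted p of 0.195. An exact two-sided permutation test of the miR-122 levels gave p = 0.333 for genotype, the smallest value that 2 arrays against 2 allow, and p = 0.667 for time.

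The miRNAs next to miR-122 in brightness showed how far the bright end of the array moved. The 5 next brightest by mean log2 level were miR-21, miR-720, miR-22, let-7f and miR-192. miR-720, an entry derived from a transfer RNA according to later annotation, had scaled levels of 16.1 in WT ZT2, 17.1 in Clock mutant ZT2, 12.6 in WT ZT14 and 9.09 in Clock mutant ZT14, a log2 genotype ratio of 0.090 at ZT2 and -0.47 at ZT14. miR-21 had scaled levels of 27.4, 22.5, 23.7 and 23.6, and a log2 genotype ratio of -0.28 at ZT2 and -0.0042 at ZT14. It was thus highest in the WT ZT2 pool, unlike miR-122, and the higher miR-122 to miR-21 quotient of 4.93 in Clock mutant ZT2 came with both a higher miR-122 and a lower miR-21. miR-22, which is abundant in many adult tissues, had log2 genotype ratios of 0.053 and -0.23. let-7f, a member of the let-7 family of differentiation-associated miRNAs, had 0.039 and 0.045, and miR-192 had 0.098 and 0.050. Of the 10 next brightest miRNAs, 1 (let-7c, at 0.31) had a higher genotype ratio than miR-122 at ZT2 and 0 at ZT14. For time, 8 of the 10 lay above miR-122 in WT and 5 in the Clock mutant.

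Other miRNAs known to be enriched in liver did not move as one with miR-122. A list of 10 liver-enriched miRNAs included miR-122, and of the 9 others 7 were detected on all 4 arrays, miR-455 on the 2 WT arrays only and miR-215 on none. The 7 had log2 genotype ratios above 0 for 3 and below 0 for 4 at each time, with a median of -0.067 at ZT2 and -0.086 at ZT14, close to the medians over all miRNAs given above. miR-192 and miR-194, which share precursor transcripts, had log2 ratios of 0.098 and 0.17 at ZT2 and of 0.050 and -0.086 at ZT14. miR-365 had 0.38 and 0.10, miR-148a -0.14 and -0.097, miR-101a -0.21 and -0.18, and miR-193 -0.067 and 0.071. All of these were less than 2-fold apart. miR-802, linked to hepatic insulin sensitivity, was the exception at 69.1 units in WT ZT2, 18.0 in Clock mutant ZT2, 27.1 in WT ZT14 and 18.5 in Clock mutant ZT14, with log2 ratios of -1.85 (spot SD 0.36) and -1.21 (spot SD 0.54). miR-802 was faint, and its signal was between 756-fold and 3107-fold below that of miR-122.

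**Figure D4:**
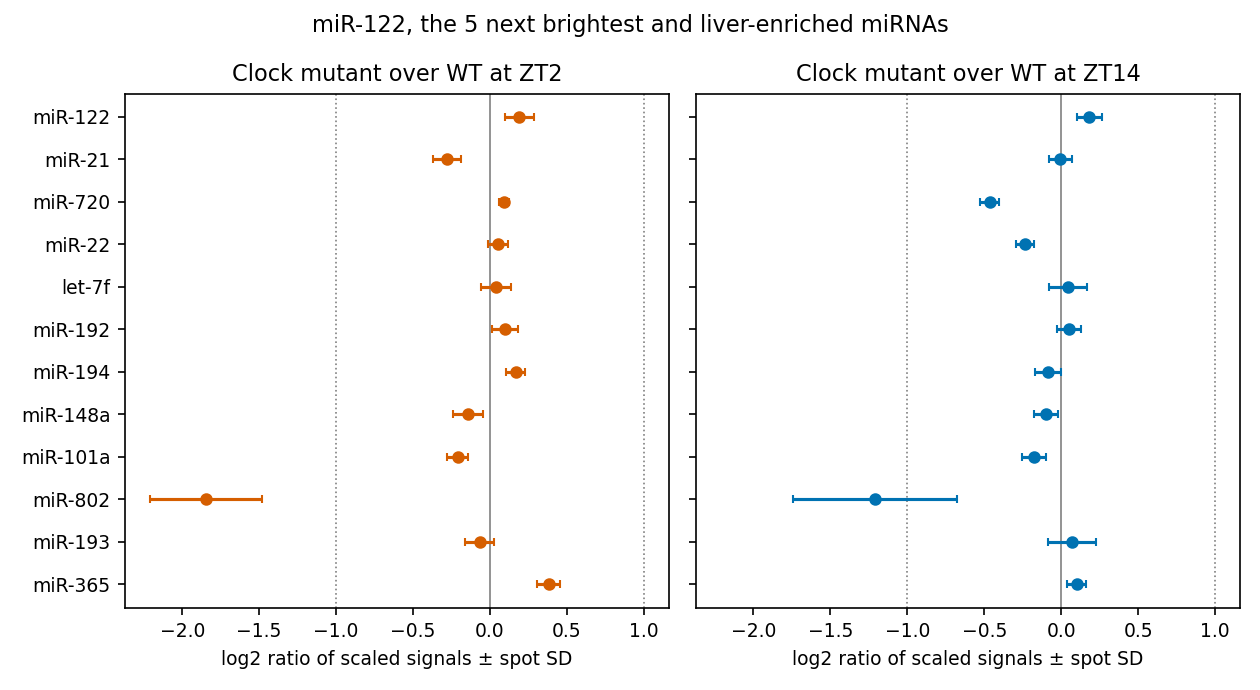
Log2 ratio of scaled signals, Clock mutant over WT, at ZT2 (left) and ZT14 (right) for miR-122, the 5 next brightest miRNAs and the liver-enriched miRNAs detected on all arrays (vertical axis), with bars for ± 1 spot SD and dotted lines at 2-fold. miR-122 lies at 0.19 and 0.18, and only miR-802, at -1.85 and -1.21, lies past a 2-fold line.

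Between times of day, 6 of the 8 other liver-enriched miRNAs measured in WT had a log2 ratio below 0 (median -0.19, against -0.12 over all miRNAs), and 7 of 7 did in the Clock mutant (median -0.17, against -0.16 over all). These signs rest on the same scaling number as that of miR-122, whose time ratio turned under other scales. Of the 8 measured in WT, 1 was past 2-fold after scaling (3.65% of all miRNAs were), namely miR-455, but its signals of 5.93 units at ZT2 and 7.98 at ZT14 were at the level of the negative control spots, which averaged 5.48 and 8.32, so no fold is given. In summed signal the liver-enriched list took 43.9%, 46.6%, 43.8% and 48.1% of the detected total, nearly all of it miR-122. Without miR-122 it took 6.03%, 5.85%, 6.14% and 5.97%.

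miRNAs that mark other cell types were a small part of the signal, and the liver label matched the markers. Of 4 pancreas miRNAs 0 were detected, and of 6 brain miRNAs only miR-219 was, on the WT ZT2 array with 15.5 units, while miR-124, the neuronal miRNA, was undetected on all arrays. Muscle miRNAs were seen on the WT ZT2 array alone: miR-1 with 105.8 units, miR-133a with 21.6 and miR-133b with 37.6, or 0.120% of the signal, and 0 of 5 on the other 3 arrays. Leukocyte miRNAs were also highest there, with a summed share of 0.465% against 0.266% to 0.281% elsewhere, and the same held for the epithelial miRNAs of the bile duct, with 0.0877% against 0.0353% to 0.0662%. Red blood cell miRNAs had their highest share in Clock mutant ZT2, at 2.18%, against 1.09% to 1.29%. The 5 detected of 6 endothelial and stellate miRNAs held 1.76% to 1.84% on every array. These sums count undetected members as 0. Of the epithelial list, 4 members were detected in WT ZT2, 2 in Clock mutant ZT2, 2 in WT ZT14 and 3 in Clock mutant ZT14. Differences between pools in the faint lists thus mix signal with detection calls, which were most numerous in WT ZT2. The pools differed in the detected signal of markers of other cells, each list holding a far smaller share than miR-122.

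Of these 34 markers, 11 were detected on both arrays of each comparison, and 0 of the 11 were at least 2-fold apart between genotypes at either time. Between times 3 of the 11 were in WT, where 3.65% of all miRNAs were, and 2 of the 11 in the Clock mutant, where 6.43% were. Markers detected on 1 of the 2 arrays, such as miR-1, have no ratio here. There were 7 of these between times in WT and 2 in the Clock mutant, and 8 between genotypes at ZT2 and 1 at ZT14. Among all mouse miRNAs, too, more were detected in WT ZT2 (193) than in Clock mutant ZT2 (161, with 160 on both). The same held against WT ZT14 (138, with 137 on both). These counts are therefore not read as a result about the markers. In the Clock mutant, the red cell miRNAs miR-451 and miR-144 had log2 ratios of ZT14 over ZT2 of -1.21 (spot SD 0.051) and -1.45 (spot SD 0.19). In WT, the leukocyte miRNA miR-142-3p had a ratio of -1.09 (spot SD 0.11). The epithelial miR-200a and miR-200b had -1.07 (spot SD 0.58) and -1.13 (spot SD 1.34). Both epithelial miRNAs were faint, at 43.2 and 49.9 units in WT ZT2 and 13.1 and 14.5 in WT ZT14, and the miR-200b ratio lay within its spot SD. These WT ratios are against the WT ZT2 array on which the muscle miRNAs were detected. In bulk tissue, fewer cells of a type and less RNA per cell cannot be told apart, which holds for hepatocytes and miR-122 as well. The part of other cells in the miR-122 ratios was not tested.

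The miRNAs whose levels over the 4 arrays were most like those of miR-122 were faint in comparison. Likeness was the root mean square difference of log2 scaled levels after each miRNA was centred on its own mean, over 4 arrays and 122 miRNAs, with a median of 0.17 and a largest value of 1.61. The closest were miR-151-5p (0.038), miR-322 (0.039), miR-15a (0.052), miR-92a (0.054) and miR-25 (0.056). Scaled levels of miR-151-5p were 0.288, 0.331, 0.273 and 0.302, in the same order of arrays as the levels of miR-122, with Clock mutant ZT2 highest and WT ZT14 lowest. miR-92a and miR-25, which come from related clusters, had log2 genotype ratios of 0.34 and 0.32 at ZT2, and of 0.15 and 0.16 at ZT14. With 4 arrays this likeness is a description, and a miRNA that hardly moved is close to any other that hardly moved.

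The log2 table that the authors deposited gave other sizes for miR-122, and these could be traced to a number subtracted from each array. Its values were 11.93 in WT ZT2, 12.93 in Clock mutant ZT2, 18.66 in WT ZT14 and 19.52 in Clock mutant ZT14. Each equals the log2 of the signal that the scanner software summed over the probes of miR-122, which was 70853, 75139, 41377 and 74942 units, minus 4.18, 3.27, -3.32 and -3.32. On every array the subtracted number was the 75th percentile of all 672 features, with undetected features set to 0.1 unit. As 465, 497, 520 and 516 features were at that floor, or 69.2%, 74.0%, 77.4% and 76.8% of all, the percentile fell on a detected signal at ZT2 (18.2 units in WT and 9.64 in the Clock mutant) and on the floor itself at ZT14.

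The arithmetic of the table can thus be written out for each comparison of miR-122. At ZT2 the table gave a log2 ratio of 1.001 between the Clock mutant and WT, of which the summed signals contributed 0.085 and the subtracted numbers 0.92. At ZT14 it gave 0.86, all of it from the summed signals, since both arrays had the same number subtracted. They so stood unscaled against each other, with WT ZT14 having the lower miRNA signal. Between times the table gave 6.73 in WT and 6.59 in the Clock mutant, while the summed signals gave -0.78 and -0.0038. The differences between times in the table were therefore those of the subtracted numbers, 7.51 and 6.59, and its ZT2 and ZT14 columns are not on one scale.

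**Figure D5:**
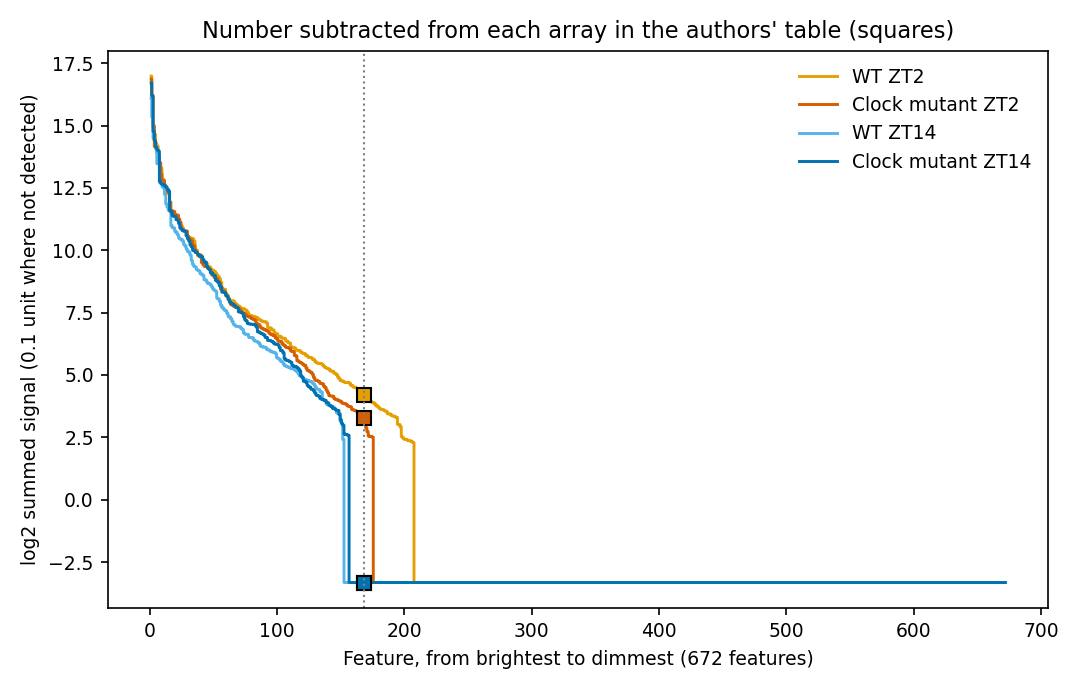
Log2 of the summed signal of all 672 features (vertical axis, undetected features at 0.1 unit) in order of brightness (horizontal axis), 1 line per array, with squares at the number subtracted from each array in the deposited table and a dotted line at the feature where the 75th percentile falls. The squares lie at 4.18 for WT ZT2, 3.27 for Clock mutant ZT2 and -3.32 for both ZT14 arrays, where fewer features (152 and 156) were above the floor.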

How the data were processed

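Liver RNA of 4 pools was hybridized to 4 one-colour (Cy3) Agilent miRNA arrays. The authors deposited the scanner output, made with Feature Extraction 10.7.1.1, whose processed spot intensity is linear and background-subtracted, and a log2 table per miRNA. Array number limits the precision, and no genome build is named. The labels describe labelling with a kit for amplified cRNA, and how these miRNAs were labelled is not settled by the sources used here, which limits comparisons of signal between miRNAs. Spots without outlier flags were averaged per probe, then probes per miRNA, and divided by the 75th percentile over the 123 mouse miRNAs that the software called detected on all arrays. A ratio compared 2 arrays, with no test. Genotype and time were fitted with limma 3.58.1 (R 4.3.3, additive, Benjamini-Hochberg). In simulated data, 30 of 30 miRNAs changed by 1.5 on the log2 scale (SD 0.15) were called, a change far larger than that of miR-122. The simulation gave every miRNA the same SD, unlike the arrays, so it does not show which changes the real fit can call. In the real fit miR-802, with a genotype difference of -1.53, was not called (limma adjusted p 0.220). Other steps used Python 3.11.15, numpy 2.4.6 and pandas 2.3.3. Named miRNAs were miR-122, the 5 next brightest, the 5 most alike, the liver-enriched list and markers at least 2-fold apart; others were named after their values were seen (let-7c, hur_2, undetected markers). The member, lists and tests were chosen with earlier results of these data known. Alternatives covered scaling, background correction, probe summary, outlier spots, the deposited log2 table and leaving out each array.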

Additional observations from a re-analysis of the deposited data

How the results depend on the processing

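The rank of miR-122 stayed at 1 on every array under all 7 alternatives. Its share moved only with the software's summed signal (34.2%, 36.5%, 34.3% and 38.1% in WT ZT2, Clock mutant ZT2, WT ZT14 and Clock mutant ZT14) and with normexp (34.5%, 37.8%, 33.7% and 38.8%). Of the 15 alternatives for each ratio, 9 at ZT2 and 8 at ZT14 for genotype, 4 for time in WT and 6 for time in the Clock mutant moved it by less than the spot SD. Log2 ratios in the order genotype at ZT2, genotype at ZT14, time in WT and time in Clock mutant, where they moved, were as follows. The 75th percentile of detected and undetected mouse miRNAs gave 0.50, 0.69, 0.13 and 0.32. Quantile normalization gave 0 for each and 0 for both limma terms, by construction, since miR-122 is the brightest miRNA on every array. The unscaled summed signal gave 0.085, 0.86, -0.78 and -0.0038, and the authors' log2 values gave 1.001, 0.86, 6.73 and 6.59. The summed signal with scaling gave -0.033 for genotype at ZT2 and -0.26 for time in WT. Taking only the brightest probe of every miRNA gave 0.069 for genotype at ZT2 and -0.044 for time in the Clock mutant. That setting also changes the 75th percentile, so it differs from the brighter-probe ratios of miR-122 given above. No scaling gave 0.84 for genotype at ZT14 and -0.83 for time in WT, and normexp -0.26 for time in WT. Spike-in scaling gave 1.02 for genotype at ZT14 and -0.91 and -0.0097 for time in WT and in the Clock mutant. The total without miR-122 gave 0.27 for genotype at ZT14 and -0.0083 and 0.077 for time, the total with it -0.0051 and 0.045, and the median 0.053 and 0.029. The limma genotype difference passed the threshold under the authors' log2 table alone (0.93, adjusted p 0.0328), where 79 of 123 miRNAs were called. The limma time difference reversed with the 75th percentile of detected and undetected miRNAs (0.22), the median (0.041), the total without miR-122 (0.035) or with it (0.020), and the authors' log2 table (6.66, adjusted p 3.62e-05). Apart from the cases explained by construction, the cause was not tested. With each array left out and 1 factor fitted, the lone array being assumed to vary like the others, the genotype difference was 0.10 to 0.28 and the time difference -0.27 to -0.077. The number of miRNAs at least 2-fold apart ranged from 0 to 27 for genotype at ZT2, 5 to 28 at ZT14, 0 to 137 for time in WT and 4 to 140 in the Clock mutant. With 1 array per condition there was no replicate block to fit beyond the time and genotype terms of the limma fit. That additive fit already compared the genotypes within each time.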
